A study of Mus musculus with 24 samples.

Results

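The enzymes that carry fatty acids into mitochondria and break them down there were followed across liver, heart and brain of mice given an Ephedra herba extract. The set of 10 genes is defined by the function of their products: Cpt1a, Cpt1b, Cpt2, Acadvl, Acadl, Acadm, Acads, Hadha, Hadhb and Acaa2. Of these 10 genes, out of 16110 on the array, 9 had a probe named for them, and the brightest probe on average stood for each gene. No value for Hadha was analysed here. Expression was measured on 24 Illumina bead arrays, 1 for each tissue and time, from female C57BL/6 mice of 5 weeks. The treated groups received an aqueous extract of Ephedra herba, a medicinal plant preparation, by mouth at 50 mg/kg for 1 hour, 6 hours, 12 hours, 24 hours, 3 days, 5 days or 10 days, and an untreated group was sampled in each tissue. Each array holds RNA of bulk tissue. The labels do not state how many animals an array represents, if 1 animal supplied all 3 tissues, or the clock time of sampling.

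Long-chain fatty acids are activated to acyl-CoA and pass the inner mitochondrial membrane as carnitine esters. Carnitine palmitoyltransferase 1, on the outer membrane, makes the ester, and carnitine palmitoyltransferase 2, on the inner side, turns it back into acyl-CoA. Acyl-CoA dehydrogenases of overlapping chain length preference then start each round of beta-oxidation, and the trifunctional protein and a thiolase complete it. Heart draws most of its energy from this pathway, liver uses it to feed ketone body synthesis during fasting, and brain relies mainly on glucose and ketone bodies.

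The deposited values are on a log2 scale on which each array is centred near 0, so a value of 0 lies at the middle of all probes of that array. A probe above that middle was counted as detected, and 10934 genes detected on at least 4 of the 24 arrays were tested, 8 members among them. Of these 8, Cpt1b was detected on 23 arrays and the other 7 on all 24. The arrays of a tissue were not equal in shape. The 95th percentile of the probes was 4.40, 4.19, 5.31, 5.15, 5.36, 4.13, 4.52 and 4.21 in liver from untreated through 1, 6, 12 and 24 hours to 3, 5 and 10 days, and 4.89, 4.84, 4.41, 4.44, 4.36, 4.64, 4.43 and 4.72 in heart. The 6, 12 and 24 hour arrays thus stood apart in both tissues, with the 5 day array among them in heart, in opposite directions. Each of these times has 1 array per tissue, so the shape of an array and its time cannot be told apart. Of the marker lists, 7 cardiomyocyte genes averaged 6.60 to 7.58 in heart, 7 hepatocyte genes 4.18 to 5.52 in liver and 7 neuron genes 4.04 to 4.36 in brain, although some of these genes were low in their own tissue: Snap25 (-0.68) and Nefl (-0.86) lay below the middle on all 8 brain arrays, and Tat, Fgb and Alb averaged -0.13, 0.14 and 1.67 in liver. Markers of other cells also moved. The 8 white fat cell genes averaged -0.02 to 0.57 on the 7 treated heart arrays and 2.01 on the untreated one. The 5 skeletal muscle genes on the array averaged 2.94 on the 1 hour liver array, 0.47 on the 10 day one, and -0.32 to 0.05 on the other 6. The hepatocyte genes averaged 1.00, 1.44 and 0.77 on the untreated, 1 hour and 6 hour heart arrays, 0.35 on the 10 day one and -0.33 to -0.09 on the other 4. The cardiomyocyte genes averaged 0.51 on the 1 hour and 0.37 on the 24 hour liver array, and 0.75, 0.28 and 0.63 on the untreated, 5 day and 10 day brain arrays, with means below 0 on all other arrays of these 2 tissues. The part of these markers in the members' values was not tested beyond the arrays left out below.

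Promoter sequence was available for 8 of the 10 genes, Hadha among them, and 4 are shown because their genes differ in the liver time course described further on: Acadm and Cpt2 moved with the width of the array, Acadvl less so, and Hadhb did not. Each is the 250 bases before the annotated start from RefSeq on GRCm38.p6, 5′ to 3′ on the gene's strand. Capitals mark AGGTCA, the half-site read by many nuclear receptors, or GGGCGG, the core of a GC box, on either strand.
Acadm, chr3:153944644-153944893, minus strand: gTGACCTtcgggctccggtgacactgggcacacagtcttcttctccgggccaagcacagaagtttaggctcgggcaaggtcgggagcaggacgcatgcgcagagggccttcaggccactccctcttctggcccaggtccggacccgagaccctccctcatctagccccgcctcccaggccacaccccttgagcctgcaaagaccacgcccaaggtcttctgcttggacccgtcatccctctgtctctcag
Acadvl, chr11:70015429-70015678, minus strand: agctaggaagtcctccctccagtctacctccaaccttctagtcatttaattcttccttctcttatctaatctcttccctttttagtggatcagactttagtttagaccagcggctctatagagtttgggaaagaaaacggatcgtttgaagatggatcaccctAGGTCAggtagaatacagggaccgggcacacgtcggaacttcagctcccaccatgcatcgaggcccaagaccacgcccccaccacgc
Cpt2, chr4:107923590-107923839, minus strand: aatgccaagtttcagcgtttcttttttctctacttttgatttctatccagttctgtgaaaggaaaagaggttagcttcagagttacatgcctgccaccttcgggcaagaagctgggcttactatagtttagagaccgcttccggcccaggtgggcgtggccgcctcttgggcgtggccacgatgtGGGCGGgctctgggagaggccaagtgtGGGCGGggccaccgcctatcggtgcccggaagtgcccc
Hadhb, chr5:30155003-30155252, plus strand: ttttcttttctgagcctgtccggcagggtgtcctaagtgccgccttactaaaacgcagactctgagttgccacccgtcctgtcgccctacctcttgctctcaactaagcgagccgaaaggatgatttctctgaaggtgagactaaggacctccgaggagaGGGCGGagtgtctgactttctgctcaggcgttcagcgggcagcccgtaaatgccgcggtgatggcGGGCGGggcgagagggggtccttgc
AGGTCA was found in 3 of 8 windows (Acadm, Acadvl and Cpt1a) and in 14.02% of 32851 windows of all genes. GGGCGG was found in 6 of 8 (Acadl, Cpt2, Hadha, Hadhb, Acads and Cpt1a), against 32.7% of all windows. Hadha and Hadhb lie head to head with 272 bases between their starts, so their windows share most of their sequence. CCAAT occurred in 1 of 8 (Cpt1a; 33.9% of all), and TCAAGGTCA, CACGTG and TGACGTCA in 0 of 8 (0.39%, 6.02% and 1.55% of all). TCAAGGTCA contains AGGTCA, and no other of these motifs contains another. A match describes letters only.

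The 8 members that passed the filter were called higher in heart than in brain, by 3.72 to 6.39 on the log2 scale (limma, time as a block, 8 arrays against 8). Of all genes tested, 34.3% were called higher and 37% lower in heart at an adjusted p under 0.05, and the median difference of all genes was 0.03, against 4.31 over these 8. In liver the same 8 were called higher than in brain, by 0.34 to 4.50, where 30.6% of genes were called higher and 45.6% lower. The medians there were 3.18 over these members and -0.16 over all genes. Between liver and heart 6 of 8 were called lower in liver, against 40.6% of all genes lower and 24.7% higher, and 0 of 8 were called higher. In bulk tissue, fewer cells of a type and less RNA per cell cannot be told apart. The p-values capture spread among these arrays alone, and within a tissue the arrays differ in time and treatment.

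Carnitine palmitoyltransferase 1 has 3 forms, of which Cpt1a and Cpt1b are members. Cpt1b, the muscle form, had values of 6.08, 6.41 and 6.87 in heart (lowest, median and highest of 8 arrays) and -0.18, 0.05 and 0.15 in brain. Heart exceeded brain by 6.39 ± 0.12 (SE, limma adjusted p = 9.58e-19), and the ranges were far apart. Cpt1b read 0.13, 0.35 and 0.82 in liver, a liver minus heart difference of -6.06 ± 0.12 (limma adjusted p = 7.51e-18). Liver and brain values lie close to the middle of the array, where no background level was available, so the size of these differences holds on this scale only.

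The much smaller liver minus brain difference of Cpt1b, 0.34 ± 0.12 (limma adjusted p = 0.0152), came from overlapping ranges, with liver higher at 7 of 8 times. Its highest liver value, 0.82, was on the 1 hour array, the one with the skeletal muscle markers at 2.94. Without that array the difference was 0.29 (limma adjusted p = 0.0402), and without the 1 hour arrays of all tissues it was 0.24 (adjusted p = 0.0534). Cpt1a, the form best known from liver, has a single probe, which lay below the middle on all 24 arrays. Its values averaged -0.25 ± 0.11 in liver, -0.47 ± 0.07 in heart and -0.53 ± 0.18 in brain (SD, n = 8), so its level was not resolved and it was not tested. The brain form Cpt1c, which is no member of the set, lay below the middle on all liver arrays (-0.35 ± 0.08) and heart arrays (-0.46 ± 0.08) and averaged 1.31 ± 0.27 in brain (SD, n = 8).

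Cpt2, the inner-membrane enzyme shared by all tissues, had values of 4.68, 5.48 and 6.76 in liver, 5.61, 5.78 and 6.26 in heart and 1.35, 1.46 and 1.71 in brain. Both heart and liver lay clear of brain, by 4.38 ± 0.24 and 4.13 ± 0.24 (limma adjusted p = 9.31e-12 and 1.66e-11). Heart and liver overlapped, and their difference of -0.24 in liver has a 95% interval of -0.75 to 0.27 (limma adjusted p = 0.386).

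The 4 acyl-CoA dehydrogenases, which take the first hydrogens off the chain, differed from each other in how liver compared with heart. Acadvl, the very-long-chain enzyme, had values of 5.27, 5.94 and 6.39 in liver, 6.63, 7.03 and 7.54 in heart, and 2.57, 2.78 and 3.05 in brain, with no overlap between any of them. Heart exceeded brain by 4.24 ± 0.20 and liver exceeded brain by 3.08 ± 0.20, while liver was below heart by a difference of -1.16 ± 0.20 (limma adjusted p = 4.04e-05). Acadl, the long-chain enzyme, also kept its 3 tissues apart, at 1.52, 2.08 and 3.57 in liver, 4.56, 4.82 and 5.20 in heart and 0.18, 0.36 and 0.69 in brain. Its liver minus heart difference was -2.71 ± 0.17 (limma adjusted p = 7.60e-11), the widest among the brightest probes of the dehydrogenases, but not among their second probes, where Acadm stood at -2.19 and Acadl at -1.73.

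Acadm, the medium-chain enzyme, reached 6.42, 6.99 and 8.91 in liver, 7.84, 8.35 and 8.95 in heart and 3.88, 4.18 and 4.44 in brain. Heart and liver overlapped, with liver higher at 3 of 8 times, those of 6, 12 and 24 hours. The liver minus heart difference of -0.91 ± 0.36 passed (limma adjusted p = 0.0361), but not with the untreated, 1 hour, 3 day, 5 day or 10 day arrays left out (values of -0.91 to -0.71, adjusted p = 0.0653 to 0.119). Acads, the short-chain enzyme, had values of 3.99, 4.43 and 5.11 in liver, 4.41, 4.67 and 5.66 in heart and 0.47, 0.80 and 1.12 in brain. Its liver minus heart difference of -0.41 ± 0.16 (limma adjusted p = 0.0299) likewise missed the threshold without the untreated, 1 hour, 3 day or 10 day arrays (values of -0.36 to -0.28, adjusted p = 0.0795 to 0.121). Without the untreated heart array alone, the one with the white fat cell markers, the differences were -0.80 for Acadm and -0.36 for Acads (adjusted p = 0.0797 and 0.0708). Without the 1 hour liver array alone they were -0.74 and -0.31 (adjusted p = 0.0890 and 0.0810), and without the 5 day liver array Acadm stood at -0.88 (adjusted p = 0.0602). Both stood well above brain in heart and in liver, Acadm by 4.20 and 3.29 and Acads by 4.08 and 3.67.

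The last steps of the cycle were represented by Hadhb and Acaa2. Hadhb, the thiolase subunit of the trifunctional protein, had values of 3.13, 3.55 and 3.87 in liver, 5.96, 6.45 and 7.02 in heart and 1.90, 2.85 and 3.36 in brain. Liver exceeded brain by only 0.82 ± 0.15 (limma adjusted p = 9.57e-05), with overlapping ranges, and stood -2.90 ± 0.15 from heart (limma adjusted p = 6.63e-12). Acaa2, the thiolase for shorter chains, showed the other pattern. Its values were 5.26, 5.94 and 7.95 in liver, 6.02, 6.61 and 7.50 in heart and 1.44, 1.82 and 2.05 in brain. Liver minus brain was 4.50 ± 0.35 (limma adjusted p = 1.16e-09), and liver minus heart was -0.44 with a 95% interval of -1.18 to 0.30 (adjusted p = 0.282). With quantile normalization within each tissue the liver minus heart differences of Acaa2 and Cpt2 passed, at -0.43 and -0.25 (limma adjusted p = 0.0269 and 0.00555). They passed also with normalization over all 24 arrays, at -0.76 and -0.50, and Acaa2 passed also without the 12 hour liver array, at -0.73 (adjusted p = 0.0433). By its levels each of the 8 tested enzymes was ordered heart, liver, brain, and for Acaa2 and Cpt2 heart and liver did not differ beyond the spread of the deposited values.

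**Figure D1:**
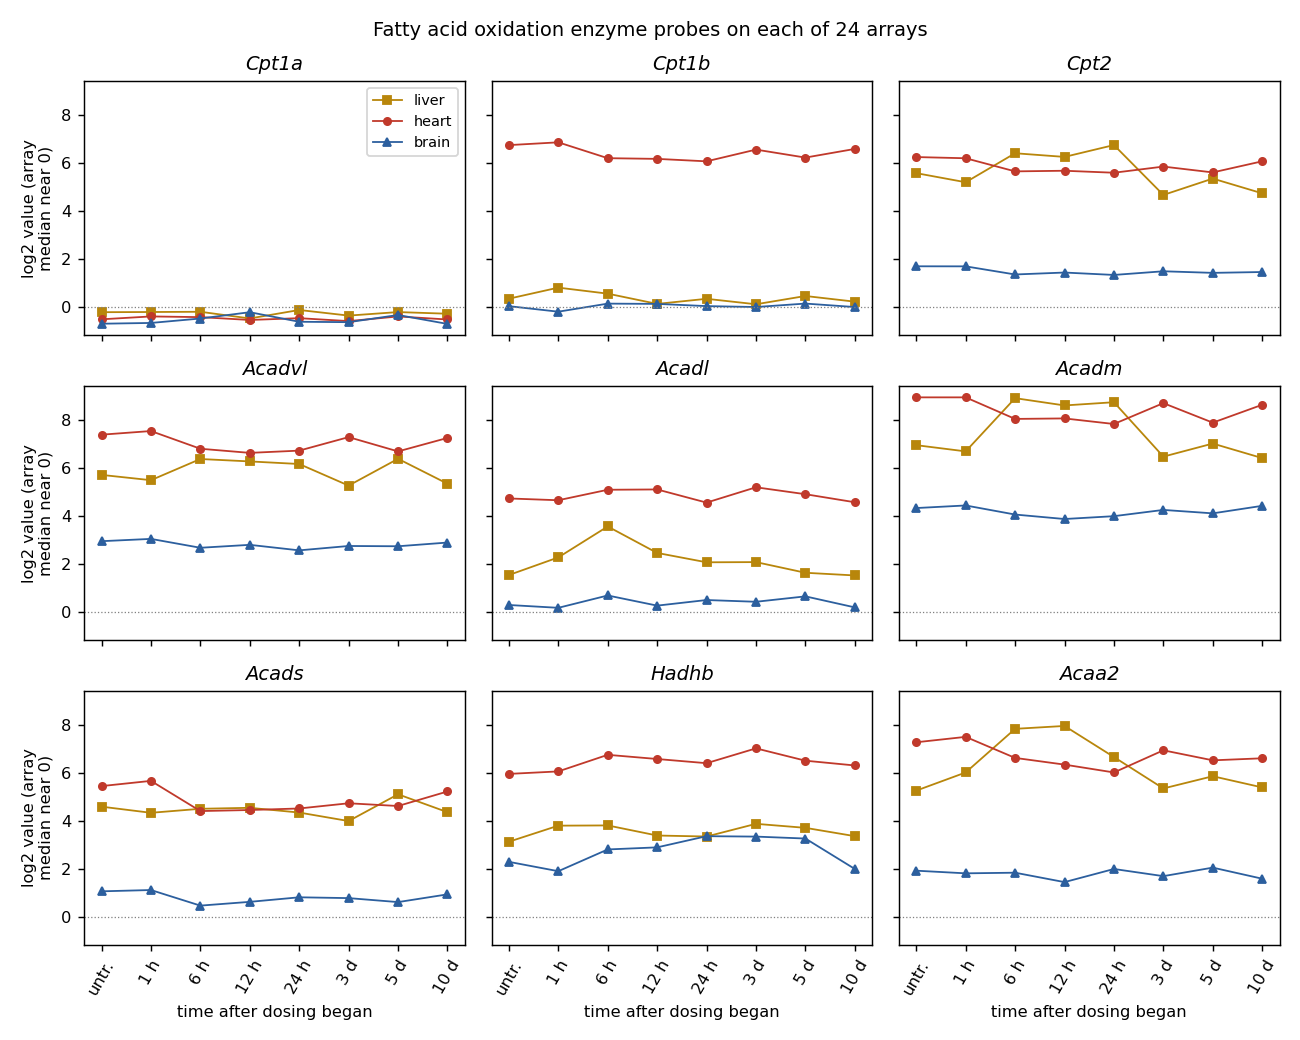
Log2 value of the brightest probe of 9 fatty acid oxidation genes (y axis, dotted line at 0, the middle of an array) against time (x axis, from untreated to 10 days), with 1 point for each array of liver, heart and brain. Cpt1a stays below 0 on all 24 arrays, Cpt1b is high in heart only, with values of 6.08 to 6.87, and Acadm, Cpt2 and Acaa2 are highest in liver at 6, 12 or 24 hours.

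**Figure D2:**
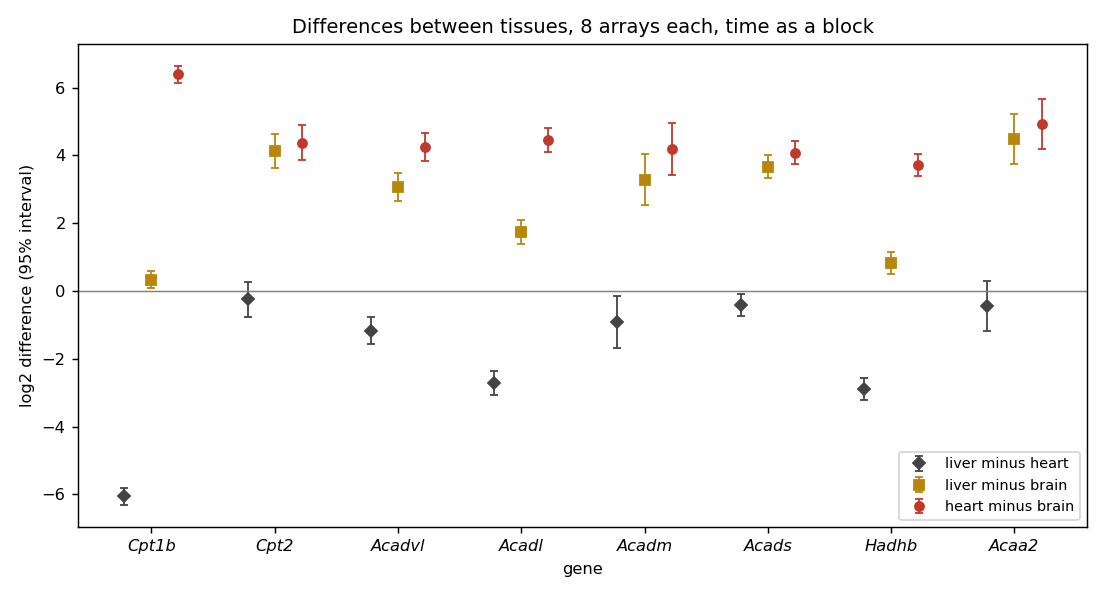
Log2 difference between tissues (y axis) for the 8 tested genes (x axis), as liver minus heart, liver minus brain and heart minus brain, with 95% intervals from limma (8 arrays a tissue, time as a block). The liver minus heart intervals of Cpt2 (-0.75 to 0.27) and Acaa2 (-1.18 to 0.30) include 0.

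Genes around the pathway were counted in lists by function, by their calls at an adjusted p under 0.05. The 11 auxiliary and electron-transfer enzymes tested, which handle double bonds and pass electrons to the respiratory chain, were counted first. Heart exceeded brain for 11 and fell short for 0 (median 2.77), against 34.3% of all genes higher, and liver exceeded brain for 9 and fell short for 0 (median 2.23), against 30.6%. Liver exceeded heart for 1 (Acad10) and fell short for 7 (median -0.52), against 24.7% of all genes higher and 40.6% lower. Etfdh, which hands the electrons to ubiquinone, differed by 4.08 in heart and 2.58 in liver from brain. Etfb, a subunit of the electron transfer flavoprotein, differed by 3.92 and 3.62, and Decr1, a reductase for unsaturated chains, by 3.89 and 2.63.

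Of the 8 tested genes of the carnitine system outside the members, 3 were called higher in heart over brain and 5 lower (median -1.16), where 34.3% of all genes were higher and 37% lower. In liver over brain 3 were higher and 3 lower (median 0.01), where 30.6% of all genes were higher and 45.6% lower, so the shares of higher calls lie near those of all genes. The carnitine-acylcarnitine carrier Slc25a20 stood above brain by 3.57 in heart and 3.47 in liver, while the acyl-CoA synthetase Acsl3 was below brain by differences of -3.51 in heart and -2.19 in liver. Acsl6, another synthetase, differed from brain by -3.30 in heart and lay below the middle on all 8 liver arrays, so no size is given there. Crat, carnitine acetyltransferase, was 3.09 above brain in heart, and liver was -2.93 from heart. Cpt1c, also among these 8, passed the filter through brain alone (8 brain, 0 heart and 0 liver arrays), so the filter partly set its calls. Of the 9 tested genes that control the pathway, 9 were called higher in heart over brain (median 1.58), against 34.3% of all genes. In liver over heart 2 were higher with 6 lower (median -1.56), against 24.7% and 40.6% of all genes. The share of higher calls there lies near that of all genes. Among these 9, Ucp3 was above the middle on 8 heart, 0 brain and 0 liver arrays. It passed the filter through heart alone, so the filter partly set its calls. Pdk4, the kinase that shuts pyruvate dehydrogenase, led with a heart minus brain difference of 4.91, and the coactivator Ppargc1a was -2.64 in liver minus heart.

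Peroxisomal enzymes ran the other way between heart and liver. Of 12 tested, 10 were called higher in liver over heart with 1 lower (median 1.94), against 24.7% and 40.6% of all genes. Ehhadh and Pecr passed the filter only through liver (8 liver arrays each, 1 and 3 heart and 0 brain arrays), so the filter partly set this count. The thiolase Acaa1b led at 7.54, with the oxidase Acox2 at 5.09. Both lay near the middle in heart (0.87 ± 1.05 and 0.48 ± 0.19, SD, n = 8). For fatty acid uptake, liver exceeded heart for 3 of 7 tested genes and fell short for 3, against 24.7% and 40.6% of all genes. The share of lower calls thus lies near that of all genes. Cd36 and Fabp1 lay below the middle on all arrays of each tissue, so their levels were not resolved and they were not tested. The liver transporter Slc27a5 averaged 7.51 in liver and -0.02 in heart, where 2 of 8 arrays were above the middle. With 0 brain arrays above it, Slc27a5 passed the filter only through liver. The muscle-type binding protein Fabp3 averaged 0.21 in liver, where 3 of 8 arrays were above the middle, and 8.76 in heart. Both were called, but the sizes of these differences are not resolved. Of 3 ketone body genes, Oxct1, which ketone-using tissues need, was -6.76 in liver minus heart, and Bdh1 was 1.92. As a comparison outside the pathway, 15 citric acid cycle genes were called higher in liver over heart for 2 and lower for 12 (median -1.44). In heart over brain 14 of them were higher and 1 lower (median 2.19), against 34.3% and 37% of all genes. The medians of all genes were 0.03 for heart minus brain, -0.16 for liver minus brain and -0.12 for liver minus heart.

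Over time, none of the 8 tested members passed at any of the 7 times against untreated when the 3 tissues stood as replicates (limma, tissue as a block, 3 arrays against 3). The fits called 0% of all genes at 1 hour, then 3.33% at 6 hours and 5.37% at 12 hours. They called 2.7% at 24 hours, 0.32% at 3 days, 1.98% at 5 days and 0% at 10 days. At an unadjusted p under 0.05 there were 3 members at 6 hours, 1 each at 24 hours, 3 days and 5 days, and 0 at the other 3 times. Of all 10934 genes tested, 95, 2043, 2308, 1929, 1375, 1984 and 126 had such a p from 1 hour to 10 days. At 24 hours, 3 days and 5 days 1 of 8 members was thus no larger a share than that of all genes. The fitted differences of the members ran from -0.58 (Acads at 6 hours) to 0.95 (Hadhb at 3 days), with standard errors of 0.19 to 0.59. The nearest to the threshold was Acadl at 6 hours, 0.93 ± 0.28 (SE, limma adjusted p = 0.0726).

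Acadl differed from its untreated array at 6 hours by 2.02 in liver, 0.36 in heart and 0.40 in brain. Quantile normalization within each tissue, which gives every array of a tissue the same distribution, put the Acadl difference at 0.98 (limma adjusted p = 0.0211), and normalization over all 24 arrays at 0.92 (adjusted p = 0.0261), both past the threshold. The other detected Acadl probe did not share it: on the liver arrays of untreated, 1 hour and 6 hours it read 2.60, 2.44 and 2.34.

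Hadhb was the one member whose deposited values stood above untreated in all 3 tissues at each time from 6 hours to 5 days, whereas after quantile normalization within tissue its liver differences at 12 and 24 hours were -0.10 and -0.20. In brain it read 2.29, 1.90, 2.81, 2.89, 3.36, 3.34, 3.26 and 1.99 from untreated to 10 days. In heart it read 5.96, 6.06, 6.75, 6.58, 6.40, 7.02, 6.51 and 6.31, and in liver 3.13, 3.80, 3.81, 3.39, 3.35, 3.87, 3.71 and 3.36. The untreated value was the lowest of the 8 in heart and in liver, and in brain the 1 hour and 10 day values were lower still. The fitted difference at 3 days, 0.95 ± 0.25 (SE), had a limma adjusted p of 0.121 and an unadjusted p of 0.00133. A single probe stands for Hadhb, so no second probe bears on it.

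In heart most other members read lower than untreated at these times in the deposited values. Acadm read 8.95, 8.95, 8.05, 8.07, 7.84, 8.71, 7.89 and 8.64 from untreated to 10 days. Cpt1b read 6.76, 6.87, 6.21, 6.18, 6.08, 6.57, 6.24 and 6.60, and Cpt2 6.26, 6.21, 5.66, 5.69, 5.61, 5.86, 5.62 and 6.08. All 3 were lowest on the 6, 12 and 24 hour and 5 day arrays, the same arrays on which the 95th percentile of all probes was lowest. Over the 8 heart arrays the correlation with that percentile was 0.97 for Acadm, 0.98 for Cpt1b and 0.99 for Cpt2, 0.95 for Acads, 0.94 for Acadvl and 0.88 for Acaa2, against -0.34 for Acadl and -0.60 for Hadhb. These are descriptions over arrays that share their scale. The mean of the 7 cardiomyocyte markers was likewise lower on those 4 arrays (6.60 to 6.88) than on the other heart arrays (7.15 to 7.58), and its part in these values was not tested.

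With the distributions made equal within heart, the brightest probes of Cpt1b, Cpt2 and Acadm spanned 0.16, 0.14 and 0.30 over the 8 arrays. Their deposited values spanned 0.79, 0.65 and 1.11. The second probes of Cpt1b and Acadm spanned 0.88 and 0.825 after this normalization, and 1.28 and 1.54 as deposited. The heart differences of Cpt2 from untreated, between -0.65 and -0.05 in the deposited values, lay between -0.11 and 0.03 after normalization. Those of Hadhb were larger after it: its 6 hour, 12 hour, 24 hour, 3 day and 5 day differences in heart were 0.80, 0.62, 0.45, 1.06 and 0.55 as deposited and 1.41, 1.21, 1.20, 1.32 and 1.12 after normalization. Acads stayed below untreated in heart after normalization from 6 hours to 5 days, by differences of -0.55, -0.53, -0.37, -0.46 and -0.35. The normalized heart differences of Acaa2 ran from -0.42 at 24 hours to 0.28 at 1 hour. Each of these differences is 1 array against 1 and has no test.

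In liver the deposited values of Acaa2, Acadm, Cpt2, Acadl and Acadvl spanned more than in heart or brain, while Hadhb spanned most in brain and Acads and Cpt1b in heart. Acadm read 6.95, 6.70, 8.91, 8.61, 8.75, 6.48, 7.02 and 6.42 from untreated to 10 days. Cpt2 read 5.59, 5.21, 6.42, 6.27, 6.76, 4.68, 5.36 and 4.75, and Acaa2 5.26, 6.02, 7.83, 7.95, 6.66, 5.35, 5.86 and 5.39. The 6, 12 and 24 hour arrays held the 3 highest values of each, and they were also the 3 arrays with the highest 95th percentile. The correlation with that percentile over the 8 liver arrays was 0.99 for Acadm, 0.96 for Cpt2 and 0.86 for Acaa2, 0.82 for Acadvl, 0.18 for Acads and -0.17 for Hadhb. The 7 hepatocyte markers averaged 5.30 to 5.52 on those 3 arrays and 4.18 to 4.62 on the other 5, and their part in these values was not tested.

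Equal distributions within liver left the brightest Acadm probe within 0.26 above and 0.34 below its untreated value at all 7 times. On that scale the second Acadm probe read 3.92, 4.77, 5.11, 4.73, 4.27, 3.95, 4.04 and 3.95 from untreated to 10 days. The sign turned for Cpt2. Its differences at 6, 12 and 24 hours were 0.83, 0.68 and 1.17 as deposited and -0.40, -0.40 and -0.20 after normalization. The sign also turned for Acadvl, at 0.66, 0.56 and 0.45 as deposited and -0.59, -0.55 and -0.81 after it, and Acads stood at -0.09, -0.05 and -0.25 as deposited and -0.91, -0.75 and -1.05 after it. The brightest Acaa2 probe stood above untreated on both scales, by 2.58 and 2.70 at 6 and 12 hours as deposited and by 1.20 and 1.44 after normalization. Its 1 hour difference was 0.76 as deposited and 1.07 after normalization, and its 24 hour difference 1.40 and 0.05. After normalization 2 other Acaa2 probes read 5.38 and 5.19 untreated, 6.40 and 6.40 at 6 hours, and 6.72 and 6.45 at 12 hours. The last Acaa2 probe went the other way, at 6.22, 4.68 and 4.85. The brightest Acadl probe at 6 hours was 2.02 above untreated as deposited and 1.67 after normalization.

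**Figure D3:**
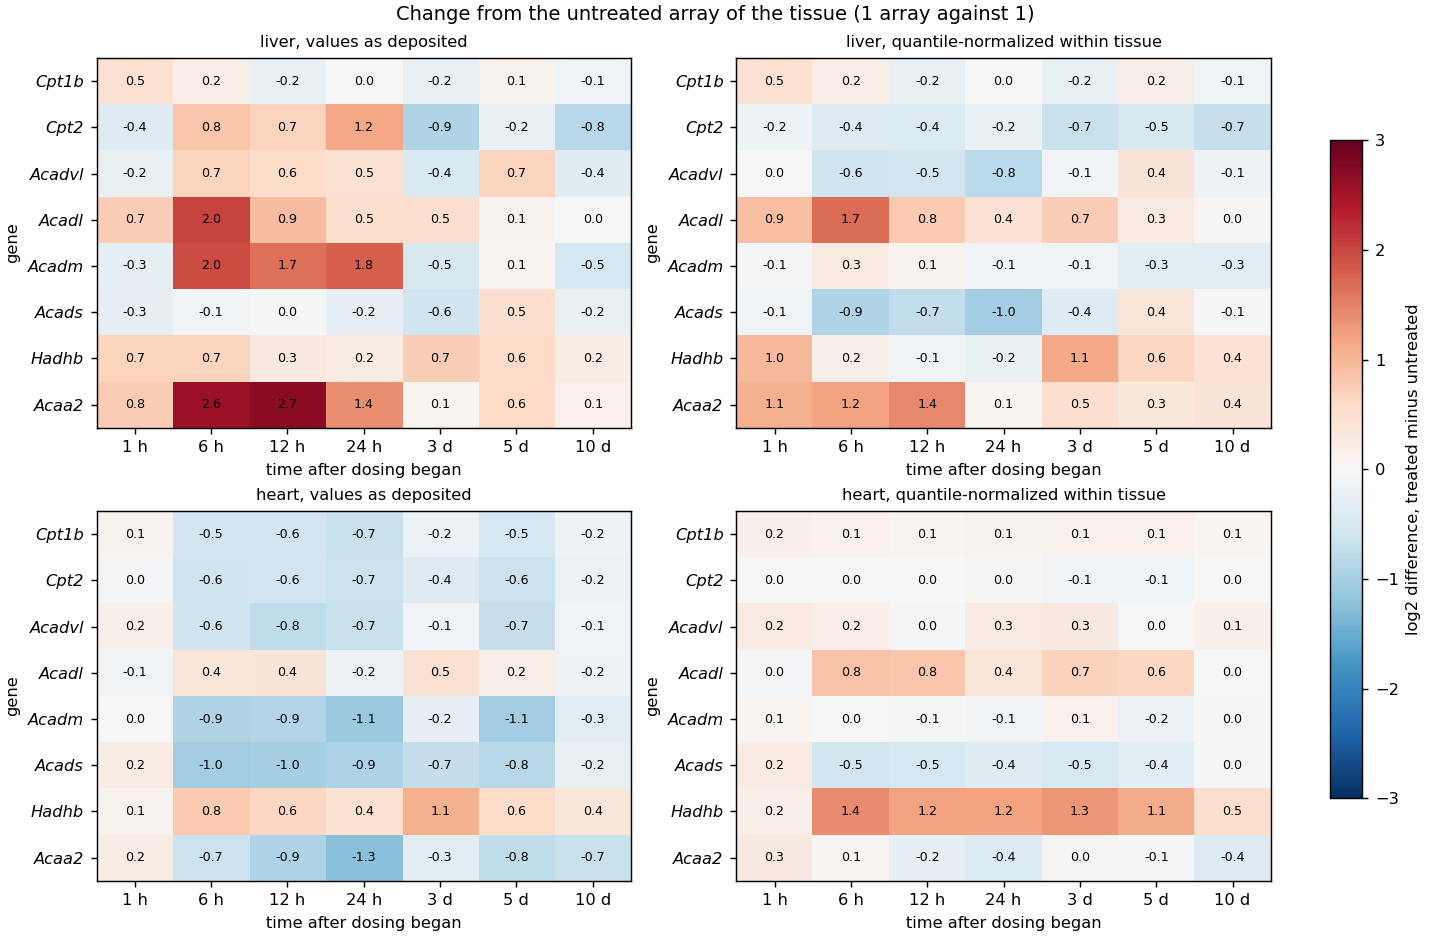
Log2 difference of each treated array from the untreated array of its tissue (colour and printed value) for 8 genes (rows) at 7 times (columns), in liver (top) and heart (bottom), as deposited (left) and after quantile normalization within tissue (right). Each gene is shown by its brightest probe. In heart the negative values of Cpt1b, Cpt2 and Acadm on the left are near 0 on the right. Acads stays between -0.55 and -0.35 there from 6 hours to 5 days, while Hadhb is above 1. In liver Acaa2 at 6 and 12 hours and Acadl at 6 hours stay above 1 on both sides.

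Different probes of a gene did not always share these time courses. Acaa2 has 4 probes. In liver 2 of them correlated at 0.998 and 0.987 with the brightest over 8 arrays, and the last at -0.27: it read 5.77, 5.56, 5.33, 5.37, 5.28, 5.27, 6.21 and 5.23 from untreated to 10 days, with no peak at 6 and 12 hours. In heart the 3 other probes correlated with the brightest at 0.99, 0.99 and 0.91.

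The second Acadm probe followed the first in liver (0.93) and heart (0.97) in the deposited values, but not in brain (-0.46). In liver it read 3.77, 4.31, 5.87, 5.24, 4.87, 3.52, 3.90 and 3.59, highest at 6 hours. The second Acadl probe did not follow the first in liver (-0.13) or heart (-0.28), and the third lay below the middle on all arrays. The 2 Acads probes correlated at 0.50 in liver and 0.34 in heart. The 2 Cpt1b probes correlated at 0.95 in heart, 0.29 in liver and -0.37 in brain. The second Cpt1b probe lay above the middle on 4 liver and 0 brain arrays. Between tissues the probes gave the same signs with unlike sizes. The second probe put liver minus heart at -2.19 for Acadm (first probe -0.91), -1.73 for Acadl (-2.71), -4.48 for Cpt1b (-6.06) and -0.40 for Acads (-0.41), each with a limma adjusted p under the threshold, the highest being 0.00478.

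**Figure D4:**
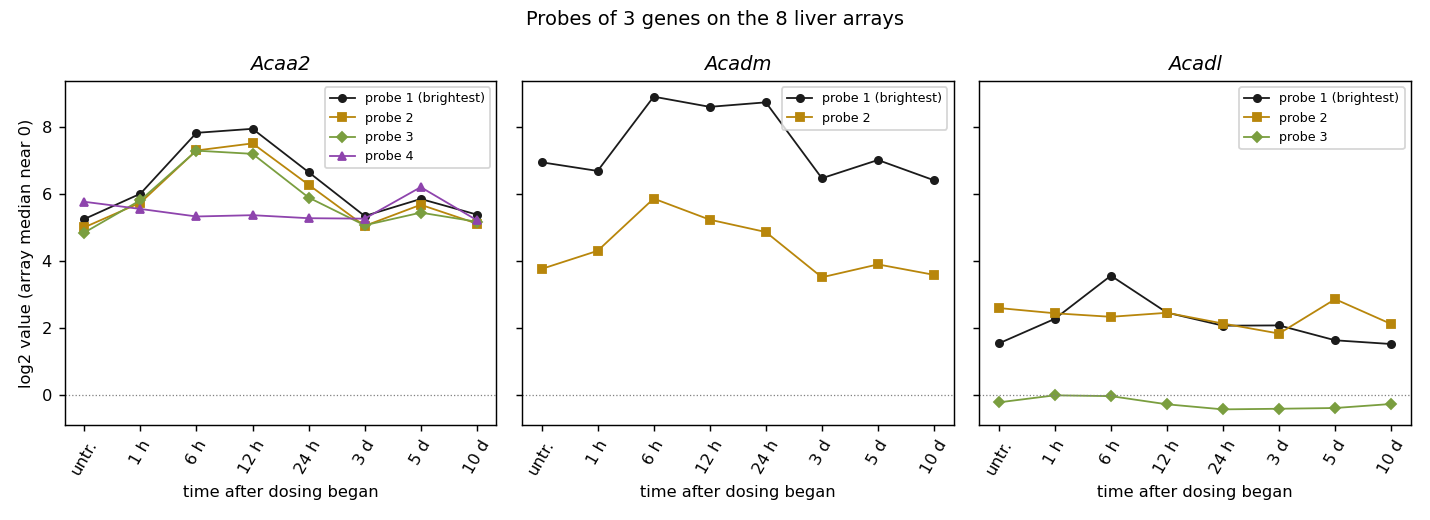
Log2 value (y axis, dotted line at 0) of each probe of Acaa2, Acadm and Acadl on the 8 liver arrays (x axis, untreated to 10 days). Of the 4 Acaa2 probes 3 peak at 6 and 12 hours and the last stays between 5.23 and 6.21, and only the brightest Acadl probe reaches 3.57 at 6 hours.

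Treated arrays were also set against untreated ones as a whole. Over the 3 tissues together (21 treated and 3 untreated arrays) 0 of 8 passed, against 0% of all genes. There 1 member, Hadhb, had an unadjusted p under 0.05 (difference 0.52, limma adjusted p = 0.427), as did 1215 of all 10934 genes tested. Within brain, heart and liver, where 7 treated arrays stood against 1 untreated array that was assumed to vary like them, 0 of 8 passed in each, against 0%, 0.11% and 0% of all genes, and 0 of 8 had an unadjusted p under 0.05. With a single untreated array and standard errors of 0.25 to 0.71, these fits say little about the absence of a difference. The test of a difference between tissues called 0 of 8, against 0.0274% of all genes, with 0 at an unadjusted p under 0.05. The untreated array of the heart comparison is the one with white fat cell markers at 2.01, whose part in these values was not tested.

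The slope on log2 hours from 1 hour to 10 days called 0 of 8 members in brain, heart and liver and 0 of 8 in the test of a difference between tissues, against 0% of all genes in each of these 4 tests (limma, 7 arrays a tissue). At an unadjusted p under 0.05 there were 2 members in liver and 0 in the other 3 tests. Of all 10934 genes tested, 348 had such a p in liver, 59 in brain, 160 in heart and 100 in the test between tissues. The liver result depended on the 1 hour array. With it 1 of 8 members had a positive slope in liver and 0 were called. Without it 4 members were called with a negative slope in liver, where 27.1% of all genes were called. These were Acaa2 at -0.53, Acadm at -0.53, Cpt2 at -0.36 and Acadl at -0.33 per doubling of time (limma adjusted p = 2.30e-04 to 0.00125). The same 4 then passed in the test of a difference between tissues (adjusted p = 0.00612 to 0.0221), where 11.02% of all genes were called.

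Leaving liver out of the times against untreated left 2 arrays against 2 and called members lower in the remaining heart and brain: Acads (-0.82) and Cpt2 (-0.47) at 6 hours, Acadm (-0.67), Acads (-0.72) and Cpt2 (-0.42) at 12 hours, Acadm (-0.72) and Cpt2 (-0.51) at 24 hours, and Cpt2 (-0.46) at 5 days, with limma adjusted p = 0.0194 to 0.0484. Of all genes 13.6%, 24.79%, 14.95% and 12.57% were called in these fits. Among the pathway lists at the 7 times, Crat passed as lower at 6, 12 and 24 hours and 5 days, by differences of -1.06, -0.92, -1.02 and -0.88 (limma adjusted p = 0.0131 to 0.0415). In the citric acid cycle list Idh2 passed as higher at 6, 12 and 24 hours, 3 days and 5 days, with differences of 1.32 to 1.65. Of the auxiliary, control, peroxisomal, ketone body and uptake lists, 0 genes passed at any of the 7 times.

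Correlation among the 8 members over the 8 arrays of a tissue had a median of 0.83 in heart, 0.27 in liver and 0.03 in brain over 28 pairs, in the deposited values. The 7 heart pairs with Hadhb had a median of -0.43. After quantile normalization within tissue the medians were 0.10 in heart, 0.09 in liver and -0.30 in brain. The genes most like the mean of the members over all 24 arrays, each centred on its tissue, were Scp2, Ubb-ps, Ppp2cb, Rpl41 and Morf4l1, at 0.93 to 0.94 in the deposited values. After normalization they were Eci2, Pnliprp2, Atf4, Stam and Nmd3, at 0.70 to 0.75, and no gene was on both lists. Within a tissue the most alike were Gsto1 in heart (0.99), Ubac1 in liver (0.99) and Eya2 in brain (0.97) as deposited. After normalization they were Retreg1 (0.95), Casq2 (0.98) and Cd53 (0.97). Each is the highest of all other tested genes over 8 arrays, so its size reflects that choice. All of these rest on 8 or 24 arrays that share their scale.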

How the data were processed

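Total RNA of brain, heart and liver was isolated with TriPure reagent and amplified to biotin-labelled cRNA for Illumina bead arrays, per the labels. The deposited log2 values of 25697 probes on 24 arrays were used as they stand. The base is taken as 2, since no label states it, and how the authors corrected background or normalized is not given in the sources used here. Each array is centred near 0. A second table of intensities was not used, since none of its 24 value columns carries the name of a sample. No detection p-values or bead counts were therefore at hand, and the number of arrays, 8 a tissue and 1 per tissue and time, limits the precision.

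Gene symbols came from the platform annotation: 23141 probes had 1 symbol and 2556 none, giving 16110 genes, of which 4507 had more than 1 probe. Each gene was taken by its brightest probe. Linear models were fitted with limma 3.58.1 in R 4.3.3 (two-sided, eBayes) to the 10934 genes above the array median on at least 4 arrays, with Benjamini-Hochberg adjustment over all of them and a threshold of 0.05. Tissue contrasts had time as a block, and time contrasts tissue. The fit was tested on simulated data. Promoter windows and positions came from RefSeq, GRCm38.p6.

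Alternatives were 2 quantile normalizations, a median shift, 2 other filters, the mean of probes, a variance trend, no time block, leaving out each time or tissue and, chosen after seeing the data, leaving out 7 single arrays in turn and using the second brightest probe. The members and gene lists were chosen with earlier results of these data known. All 10 members are named, with up to 4 genes of each other list in a contrast and the 5 genes most like the members.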

Additional observations from a re-analysis of the deposited data

Results flagged for a closer look

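In 2 of 27 groups of a member and a tissue, each of 8 arrays, 1 array lay further from the others than Dixon's 95% critical value of 0.526 allows, where chance gives about 1 in 20 groups. The brightest Acadl probe read 3.57 on the 6 hour liver array, with the next highest liver value at 2.46, and the second Acadl probe read 2.34 there. Cpt1b read -0.18 on the 1 hour brain array, with the other 7 brain values between 0.01 and 0.15, all near the middle of the array.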

How the results depend on the processing

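Of 439 recomputed counts of members called, 429 kept their side of the threshold or stayed within 1.5 times, and of 576 recomputed differences between tissues 556 kept direction and call, with 0 reversed. At 6 hours against untreated 1 member passed under quantile normalization within tissue and 1 over all arrays. Leaving out each time or tissue in turn gave 0 to 2 members at 6 hours, 0 to 3 at 12 hours, 0 to 2 at 24 hours, 0 to 1 at 5 days, 0 to 4 for the slope in liver and 0 to 4 for its difference between tissues, the highest counts without liver or without 1 hour. Without the 1 hour liver array alone the slope counts were 4 and 4. The second brightest probe changed no call for Acaa2, Acadm, Acadl, Cpt1b and Acads. Acadvl, Cpt2 and Hadhb have 1 probe each, so this setting left their values as they were. Leaving out each time, 8 of 8 stayed called in heart against brain, 7 to 8 in liver against brain and 4 to 6 in liver against heart. The cause of these changes was not tested. The tissue contrasts had time as a block, and leaving that block out changed no call among the 8 members in the 3 contrasts. The labels give no replicate numbers, so no other pairing was fitted.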
